A study of Mus musculus with 4 samples.

Results

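The cytosolic ribosomal protein genes of the mouse were followed in single cells of the embryonic nose. They were chosen by gene symbol: Rpl or Rps and a number, with an optional a, l, x or y, plus Rpsa, Rplp0, Rplp1 and Rplp2. That rule found 81 of the 32285 features counted, 31 for the small subunit and 50 for the large subunit, the latter including the stalk proteins Rplp0, Rplp1 and Rplp2. The libraries came from whole noses at embryonic day 14.5, with 2 control and 2 mutant libraries. The sample labels give the controls as C57Bl/6J, while the series' description gives them as yap flox/flox;taz flox/flox animals without Cre. The mutants carry the transgene Tg(Sox10-cre)1Wdr with Yapflox and Tazflox alleles on C57Bl/6J by their labels, and are described as Sox10cre;yap flox/WT;taz flox/flox. By that description 1 Yap allele stayed intact. The Sox10-driven Cre acts in neural crest cells and their descendants, and which cells of the nose carried the deletion is not given by the counts. Dissociated cells were frozen and thawed before capture with a droplet kit that reads the 3′ end of polyadenylated messages. Where 4 values follow each other, they belong to control 1, control 2, mutant 1 and mutant 2.

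Ribosomal proteins assemble with ribosomal RNA into the small subunit, which reads the messenger RNA, and the large subunit, which joins amino acids. In mammals their messages are among the most abundant in dividing cells, and they are made together because every ribosome needs 1 copy of most of them. Most start with a C followed by a run of C and U, the terminal oligopyrimidine tract, through which the TOR kinase and the RNA-binding protein Larp1 control their translation and stability. A few have paralogs with narrow tissue ranges, such as Rpl3l in striated muscle and Rpl10l and Rpl39l in the testis.

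To describe the letters near the start of these genes, 300 bases around the RefSeq start (250 before to 50 after) were read. This was done for the 61 members with an entry in that table, which uses GRCm38.p6. The run CTTTCC on the gene's strand was in 26 of 61 members (42.6%) against 16.0% of all 27025 genes. The longer CTCTTTCC, which contains it, was in 8 members (13.1%) against 1.76% of genes. CCGGAAG, the core bound by ETS-family factors, was in 25 members on either strand (41.0%) against 9.93% of genes, and its part CGGAAG in 68.9% against 18.8%. TATAAA was in 9.84% of members and 15.7% of genes on either strand, and AAGATGGC, a YY1-type core, in 8.20% and 3.19%. A match describes the letters only. It may lie anywhere in the 300 bases, so these percentages do not count tracts at the first base of the message. Counted from the RefSeq start, CTTTCC began at 1 in Rpl38, 2 in Rps27, -5 in Rpl35, 32 in Rpl36al and -6 in Rpl39l. The windows below, 30 bases on the gene's strand and 5′ to 3′, show the run in capitals for members to which the results return.
Rpl38, chr11:114668568-114668597, plus strand: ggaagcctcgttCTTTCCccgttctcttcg
Rps27, chr3:90213630-90213659, minus strand: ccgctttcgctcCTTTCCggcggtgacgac
Rpl35, chr2:39005119-39005148, minus strand: gtcggccccgccCTTTCCtctttctctcga
Rpl36al, chr12:69184019-69184048, minus strand: ctctgttcgtccCTTTCCtgttcggcgcgt
Rpl39l, chr16:10170210-10170239, plus strand: tagctcccaggcCTTTCCggatttccggtg

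After cells with under 500 genes or over 10% mitochondrial UMIs were left out, 13739 of 15863 barcodes remained, 2474 to 4195 per library, with 19767873 to 35331450 UMIs. A UMI is a molecular tag that counts 1 captured message. Median UMIs per cell were 7033.0, 6878.5, 8549.0 and 5282.0. Pairs of libraries shared 3 to 5 barcodes. Yap1 had 65.0, 65.2, 56.4 and 56.0 CPM, which are UMIs per 1e6 UMIs, and Wwtr1, which encodes TAZ, 118.0, 145.0, 123.0 and 132.0. These 3′ counts over all cells need not cover the deleted exons and do not check the deletion. Control 2 stood apart for this gene group in ways given with the genotype comparison. Nothing in the labels says whether same-genotype libraries came from separate litters, so p-values measure the spread between these libraries.

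Ribosomal protein messages were a large part of the RNA counted. They took 22.3%, 21.6%, 21.7% and 20.8% of UMIs. Counting error was negligible at this depth: the widest 95% Wilson interval of any described class spanned 0.500 points. It covers counting error only. Of the 81 members, 78 exceeded 100 CPM over all cells, and they spanned 11.7-fold from the highest to the lowest. The levels in CPM were not divided by length, since a 3′ kit counts each message once. The 10 most abundant members held 23.3% of all ribosomal protein UMIs.

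The most abundant member was Rpl41 (chromosome 10, 128548114 to 128549305, minus strand, GRCm38), which encodes a very short peptide, with 5869.76, 7088.02, 5295.49 and 5127.29 CPM. Rps29, a zinc-binding protein of the small subunit (chromosome 12, 69157722 to 69159186), followed with 5360.46, 7278.32, 5106.60 and 4891.56 CPM. For both genes control 2 was the highest of the 4 libraries and both mutants were below both controls. Rpl13, Rps27a, which is made as a fusion with ubiquitin, and Rps20 came next, with means of 5440.54, 5036.46 and 4899.18 CPM over the 4 libraries. Median levels were 3147 CPM for small-subunit and 2477 for large-subunit members.

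Members named after another member numbered 16. In 11 of them, such as Rps27a, Rps15a, Rpl37a, Rpl36a and Rpl7a, the suffix marks a separate ribosomal protein, and they ran from 778.3 to 5036 CPM. The other 5 are paralogs and were the 5 least abundant members. Rpl36al and Rps27l, a p53-responsive copy of Rps27, had means of 619.88 and 499.72 CPM. Rpl39l had 15.70 and Rpl3l 0.44 CPM, the latter from 4 to 20 UMIs per library. Rpl10l had 0 UMIs in every library, which allows up to 0.027 CPM over all kept cells (3 counts). Reads from near-identical copies can be lost or assigned to the wrong copy, so the levels of these paralogs are uncertain. Ribosomal genes whose symbols escape the rule were measured too: Fau, which encodes Rps30, had 3497 CPM, Rps3a1 3251, Rpl22l1 1487 and Rack1 1008.

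To compare cell types, cells were sorted into classes by how many marker genes they expressed. A cell needed at least 3 detected markers of a class and 2 more than of any other, and 11 classes with 10 or more cells in each library were described. Mesenchyme held 9482 cells, keratinocytes 738, chondrocytes 656, nasal epithelium 396, mural cells 291, osteoblasts 284, macrophages 271, endothelium 223, glia 119, the olfactory neuronal lineage 91 and skeletal muscle 65. Markers used for the sorting are enriched in their classes by construction, so their levels do not check the labels. Among them, Sox10 was detected in 91.6% of glia and 0.900% of other cells. Tubb3, a neuronal tubulin, was detected in 95.6% of the neuronal class and 4.70% of others. Ttn, the sarcomere protein titin, was detected in 98.5% of the muscle class and 0.700% of others. Some markers were rarer, such as Gfra3 in 42.0% of glia and Tnnt3 in 15.4% of muscle cells. Mural cells also expressed mesenchyme markers at 88.0 UMIs per 10000, against 77.3 in mesenchyme itself, and so did chondrocytes (91.0) and osteoblasts (232.3), so these 3 classes are not sharply separated from mesenchyme.

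Ribosomal protein share differed between classes, most of all in the olfactory neuronal lineage. That class was mostly neurons, with Stmn2 detected in 92.3% of cells and the precursor factors Neurod1 and Neurog1 in 15.4% and 5.50%. Its share was 12.7%, 14.3%, 9.48% and 10.7%. Mesenchyme had 22.3%, 21.4%, 21.8% and 20.6%. The class mean of 11.8% ± 2.14 (SD, n = 4) was 54.9% of the mesenchyme mean of 21.5% ± 0.719 (SD, n = 4), and every neuronal value lay below every mesenchyme value. The difference was -9.71 points ± 2.16 (SD over 4 libraries), negative in 4 of 4, with a two-sided exact sign-flip permutation p of 0.125, the smallest that 4 libraries allow (0.21 after Benjamini-Hochberg adjustment over 10 classes). Neuronal cells had a median of 661.0 ribosomal protein UMIs of 6824.0 UMIs in all, mesenchyme cells 1345.5 of 6252.0, so the total captured per cell was similar.

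**Figure D1:**
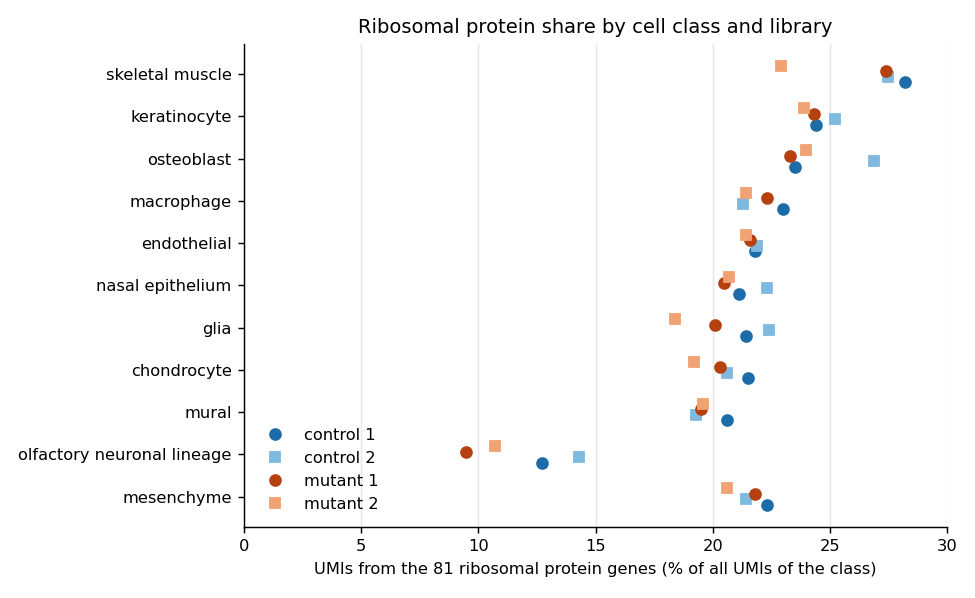
Each point is 1 library's percentage of UMIs from the 81 ribosomal protein genes within a cell class, on an axis that starts at 0; classes are in order of their mean, with the reference class mesenchyme at the bottom. The olfactory neuronal lineage sits between 9.48% and 14.3%, skeletal muscle between 22.9% and 28.2%.

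Higher shares than in mesenchyme were found in skeletal muscle, keratinocytes and osteoblasts in 4 of 4 libraries. Skeletal muscle had 28.2%, 27.5%, 27.4% and 22.9%, the last from 10 cells. Keratinocytes had 24.4%, 25.2%, 24.3% and 23.9%, and osteoblasts 23.5%, 26.9%, 23.3% and 24.0%. Mean differences from mesenchyme were 4.95 points ± 1.81, 2.95 ± 0.777 and 2.89 ± 1.98 (SD, n = 4, exact sign-flip permutation p of 0.125 each). Chondrocytes (-1.12 ± 0.396) and mural cells (-1.74 ± 0.549) were lower in 4 of 4 libraries at the same exact permutation p of 0.125. Glia, macrophages, endothelium and nasal epithelium had differences of -0.93, 0.49, 0.16 and -0.36 points that changed sign between libraries.

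Gene by gene, the neuronal lineage was low across the whole group. Each class was compared with mesenchyme by edgeR's quasi-likelihood test on summed counts with the library as a block, and genes past a Benjamini-Hochberg adjusted p of 0.05 are called. The fit scales each summed sample by a TMM factor, whereas the CPM are not scaled in that way. A log2 fold change can therefore differ in size from the CPM printed beside it. In the neuronal lineage 79 of 79 tested members were lower, where 39.8% of the 15048 genes tested were called, 23.7% lower and 16.1% higher. Rpl3l and Rpl10l had too few counts to be tested. The members' median log2 fold change was -1.27, against -0.30 over all genes tested. With DESeq2 size factors in place of TMM these medians were -1.17 and -0.21. Leaving out Rpl39l, the other 78 ranged from -1.69 to -0.64, and all 78 were below mesenchyme in each of the 4 libraries. For 73 of them the highest neuronal library lay below the lowest mesenchyme library. The share of all tested genes that met either condition was not counted, so these counts are descriptive only. Small-subunit members had a median of -1.32 (31 genes) and large-subunit members outside the stalk -1.17 (44 genes). The count of 79 was the same in every alternative run, including the fit without each library.

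The depth of the fall varied between members. The log2 values here are TMM-scaled and give deeper falls than the CPM do. Rpl36a, a large-subunit protein, was at 630.0, 857.2, 431.2 and 481.1 CPM in the neuronal lineage and 1443, 1466, 1421 and 1414 in mesenchyme. The groups did not overlap, and its log2 fold change was -1.69 ± 0.18 (SE, edgeR adjusted p = 2.95e-20). Rps19, a small-subunit protein whose human gene is mutated in Diamond-Blackfan anaemia, fell by 1.67 on the log2 scale (SE 0.16), from 4072 to 4595 CPM in mesenchyme to 1399 to 2131. Rpl39, in the exit tunnel of the ribosome, and the stalk protein Rplp1 fell by 1.65 and 1.61. At the other end Rpl36al fell by 0.64 in the scaled fit (SE 0.18, edgeR adjusted p = 0.00212). Its CPM differed less, with 494.8, 567.7, 378.4 and 433.0 against 577.5, 568.9, 547.4 and 508.6, ranges that overlap. Rpl27, Rpl38, Rpl41 and Rpl26 fell by 0.75, 0.76, 0.78 and 0.79.

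Other genes of the translation machinery were read from lists set up for this work. All 6 ribosomal genes outside the symbol rule were lower in the neuronal lineage, from Rpl22l1 at -1.92 to Fau at -0.75. Of 14 translation factors with messages of the terminal oligopyrimidine type, 13 were lower and 0 higher, with a median of -1.01. Among them the elongation factor subunits Eef1d, Eef1b2 and Eef1g fell by 1.91, 1.73 and 1.67, and Eif3a, at -0.42, did not pass (edgeR adjusted p = 0.0886). Of 29 ribosome assembly factors 9 were lower and 0 higher (median -0.66), including the nucleolar proteins Npm1 (-1.65), Nop58 (-1.47) and Ncl (-0.91). Of 12 genes of RNA polymerase I, which transcribes ribosomal RNA, 5 were lower and 0 higher (median -0.76), and of 14 TOR pathway genes 3 were lower and 0 higher (median -0.20). The 78 genes of the mitochondrial ribosome, a list added after values had been seen, had a median of -0.30, equal to that of all genes, with 12 lower and 1 higher. All 14 cycling genes were lower, with a median of -2.34, and their part in the ribosomal protein result was not tested.

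Within mesenchyme, cells with at least 3 cycling genes detected had a slightly lower share than the rest, at 22.0%, 21.0%, 21.6% and 20.2% against 22.6%, 21.7%, 22.0% and 20.9%. The mean difference was -0.61 points ± 0.167 (SD, n = 4, exact sign-flip permutation p = 0.125, lower in 4 of 4), and -1.09 ± 0.164 when 4 cycling genes were needed. Cycling cells also carried more UMIs, with medians of 6586.0 to 9906.0 against 4452.5 to 7205.0. Mesenchyme cells with under 3000 UMIs had shares of 13.9% to 18.5% over the libraries, those from 3000 to 6000 20.9% to 22.3%, and those above 10000 19.4% to 21.7%.

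In skeletal muscle 60 of 79 members were higher than in mesenchyme and 1 lower, where 34.4% of all genes were called (13.6% and 20.8%). The members' median was 0.46, against -0.31 over all genes. Rps2, a small-subunit protein near the messenger entry site, stood at 3953, 4059, 4235 and 3476 CPM against 2190, 2261, 2157 and 2037 in mesenchyme, without overlap. The TMM-scaled edgeR estimate was 1.97-fold (log2 0.98 ± 0.13 SE, edgeR adjusted p = 3.09e-12), larger than the ratio of these CPM. Rps27l followed at 0.92 and Rpl36al at 0.91. Rps27 and Rpl39, at 0.00 and 0.05, did not pass (edgeR adjusted p of 0.99 and 0.82). Mutant 2, with its 10 cells, was the lowest library, and without it 78 members were higher and 1 lower, whereas without control 1, control 2 or mutant 1 the count fell to 32, 33 or 38. Ribosome assembly factors were higher in 25 of 29 cases and lower in 0, with a median of 1.23, for example Grwd1 (1.87), Rrp9 (1.84) and the helicase Ddx21 (1.70). Cycling genes were higher in 13 of 14, with a median of 0.98, and 10 of 12 genes of the dissociation stress list were lower. Whether these move with the ribosomal protein share was not tested.

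Osteoblasts had 74 members higher and 1 lower of 79 (34.6% of all genes called, 16.0% and 18.5%), with a median of 0.34 against -0.09 over all genes. Keratinocytes had 70 higher and 2 lower (56.5% of all genes called, 26.7% and 29.9%), median 0.23 against -0.03, and 23 of 29 assembly factors higher and 0 lower. Macrophages had 53 higher and 3 lower (57.9% called, 24.0% and 33.9%), median 0.24 against -0.26. These macrophage calls are relative to the TMM scaling. The mean macrophage share of UMIs was only 0.49 points above that of mesenchyme, 22.0% against 21.5%, and the difference changed sign between libraries. Endothelium was mixed, with 22 higher and 8 lower (46.2% called, 19.2% and 26.9%), 29 and 6 with DESeq2 size factors. Lower members prevailed in nasal epithelium, 30 against 5 higher (56.6% called, 30% and 26.6%), and in chondrocytes, 29 against 1 (19.7% called, 9.78% and 9.88%). Mural cells had 21 lower and 3 higher (16.8% called, 7.30% and 9.55%), and glia 16 lower and 0 higher (23.3% called, 13.9% and 9.39%). The glial, chondrocyte and mural counts were among the least stable: 2, 0 and 3 members passed without the library block, and the glial count ranged from 5 to 28 when 1 library was left out.

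**Figure D2:**
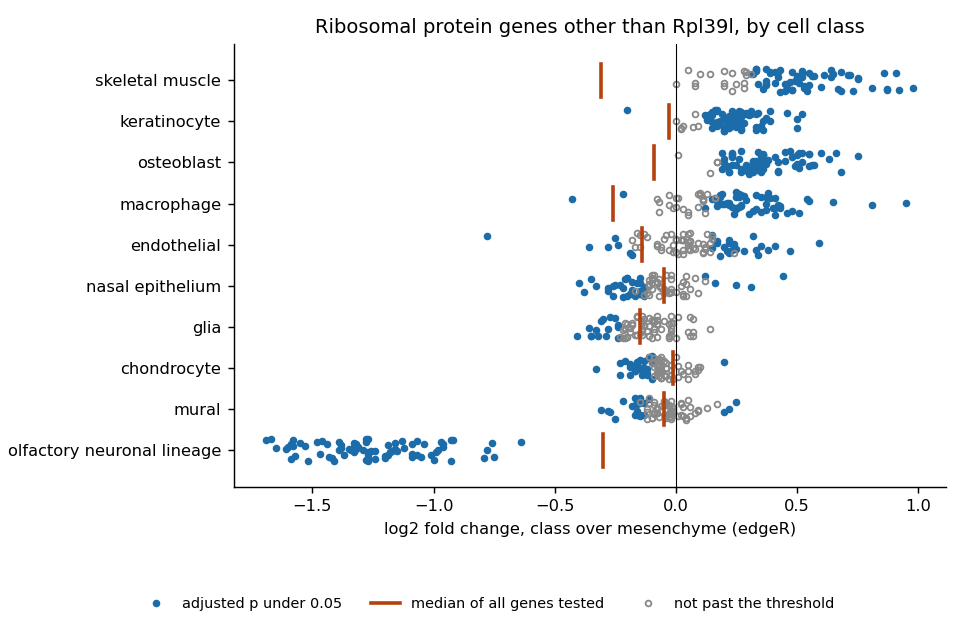
Each point is 1 of the 78 tested members other than Rpl39l, placed by its log2 fold change in a class over mesenchyme; filled points passed an edgeR adjusted p of 0.05, open points did not, and the vertical bar is the median of all genes tested. Vertical scatter within a class has no meaning. All members lie to the left in the olfactory neuronal lineage (-1.69 to -0.64) and nearly all to the right in osteoblasts and keratinocytes.

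Some members departed from the rest of the group in particular classes. The measure was the SD over the 11 classes of a member's log2 share of ribosomal protein UMIs, which had a median of 0.116 over members. Rpl39l led at 2.01, and Rps26 (0.275), Rps27l (0.256), Rplp1 (0.239), Rpl10 (0.229), Rps29 (0.225), Rpl36al (0.216) and Rps2 (0.212) followed, with Rpl27 at 0.178. These members were named for that spread in share. Each log2 share included a pseudocount of 0.5 UMIs. Rpl39l had 0 UMIs in glia, nasal epithelium and the neuronal lineage, so its SD depends on that pseudocount and on class depth. Unless a share is named, the values below are levels against mesenchyme, which can differ in direction from a share.

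Rps26, a small-subunit protein at the messenger exit, was low in endothelium, with 2172, 2340, 2341 and 2081 CPM against 4041, 4110, 4043 and 3693 in mesenchyme. The groups did not overlap (log2 -0.78 ± 0.056 SE, edgeR adjusted p = 1.53e-07), while 22 other members rose in that class. Macrophages, where most members were called higher in the scaled fit, also had less Rps26, 2366 to 2711 CPM (log2 -0.43 ± 0.051 SE). The same macrophages had the highest Rps29, 8199, 10990, 7778 and 7721 CPM against 5434, 7177, 5128 and 4835 in mesenchyme. Within each library the macrophage value was the higher, and both classes peaked in control 2 (log2 0.81 ± 0.043 SE, edgeR adjusted p = 2.92e-10).

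Rpl36al had a higher level than in mesenchyme in 7 of 10 classes, as many as Rpl41 and more than any other member. In the neuronal lineage its level was lower, but its share of ribosomal protein UMIs was higher, 0.397% against 0.256% in mesenchyme. Its macrophage values of 900.7, 956.5, 945.8 and 929.2 CPM exceeded the mesenchyme values of 508.6 to 577.5 without overlap (log2 0.95 ± 0.081 SE, edgeR adjusted p = 8.14e-08). Its counterpart Rpl36a, at -0.07 in macrophages, did not pass (edgeR adjusted p = 0.4). Rps27l had its highest level in skeletal muscle (687.7 to 1005 CPM). It was raised in nasal epithelium, with 611.5 to 741.6 CPM against 423.3 to 508.2 (log2 0.44 ± 0.068 SE). By share of ribosomal protein UMIs it was highest in nasal epithelium, 0.323% against 0.313% in skeletal muscle. Rps2 was higher in 6 classes and lower in the neuronal lineage.

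Rplp1, of the stalk that recruits elongation factors, was the only member to rise in chondrocytes, where 29 fell: 3485, 3057, 3162 and 3047 CPM against 2941, 2701, 2762 and 2677 (log2 0.20 ± 0.033 SE, edgeR adjusted p = 0.000452). It was lower in endothelium at 2148 to 2307 CPM. Rpl10, which joins the large subunit late, in the cytoplasm, was lower in keratinocytes (log2 -0.20 ± 0.054 SE), where 70 members rose, and in nasal epithelium (log2 -0.40 ± 0.063 SE). In the neuronal lineage Rpl10 and Rpl27 kept larger shares of ribosomal protein UMIs than elsewhere, 0.661% and 1.24%; the next highest were 0.578% for Rpl10 in osteoblasts and 1.01% for Rpl27 in skeletal muscle.

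**Figure D3:**
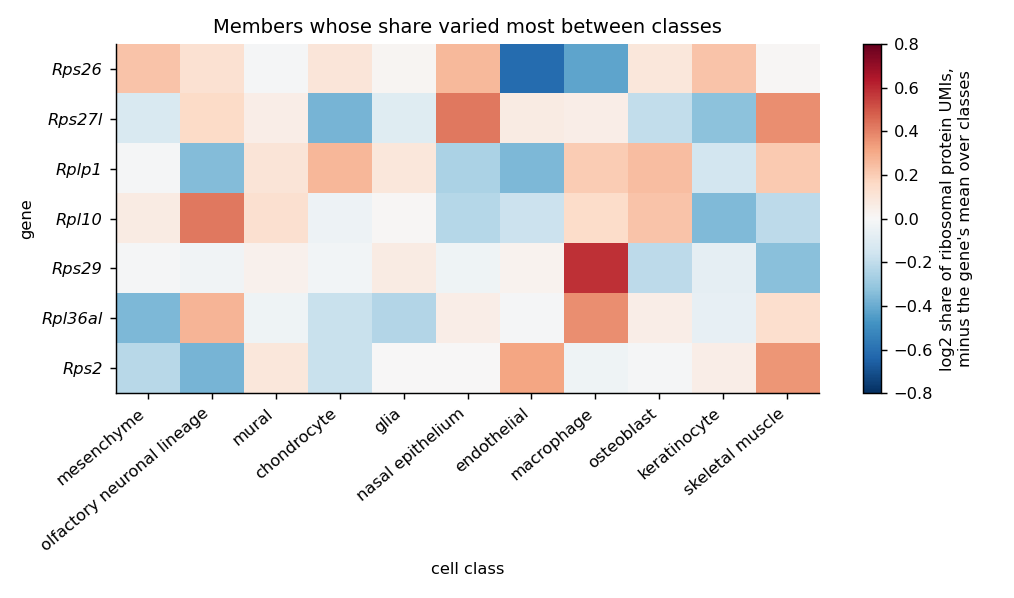
Rows are the 7 members other than Rpl39l with the largest spread between classes, columns are cell classes, and colour is the log2 share of ribosomal protein UMIs minus the gene's mean over classes (mean of 4 libraries). The strongest colours are the low Rps26 of endothelium and the high Rps29 of macrophages.

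Rpl39l, whose gene lies on chromosome 16 (10170226 to 10174911, plus strand, GRCm38), was detected mainly in mesenchyme and mural cells. Mesenchyme held 1378 Rpl39l UMIs in 804 of 9482 cells (8.48%, exact 95% interval 7.93 to 9.06), with 28.0, 20.4, 16.4 and 19.9 CPM. Mural cells had 30.9, 37.2, 25.0 and 25.1 CPM, with a UMI in 13.4% of cells (9.71 to 17.9). Intermediate levels were seen in chondrocytes (1.11 to 15.2 CPM) and osteoblasts (0.00 to 14.9 CPM). No Rpl39l UMI was found in 119 glia, 396 nasal epithelial or 91 neuronal cells, which by the 3-count floor allows up to 2.52%, 0.758% and 3.30% of cells with a UMI (exact 95% upper limits 3.05%, 0.927% and 3.97%). Taking 3 counts over the class as the floor, its level there was at least 8.18-fold, 43.3-fold and 5.16-fold lower than the 21.4 CPM of mesenchyme. Median depth was no lower in these cells, 8765.0, 11446.5 and 6824.0 UMIs against 6252.0. A UMI was found in 0.271% of keratinocytes (0.0328 to 0.975), 1.35% of endothelial cells and 2.95% of macrophages. Whether these low values are expression or background was not tested. In skeletal muscle all 7 UMIs came from 1 cell of mutant 2, so its 5.90 CPM rest on that cell. Rpl39, the abundant counterpart, was at 1298 CPM or more in every library of every class.

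**Figure D4:**
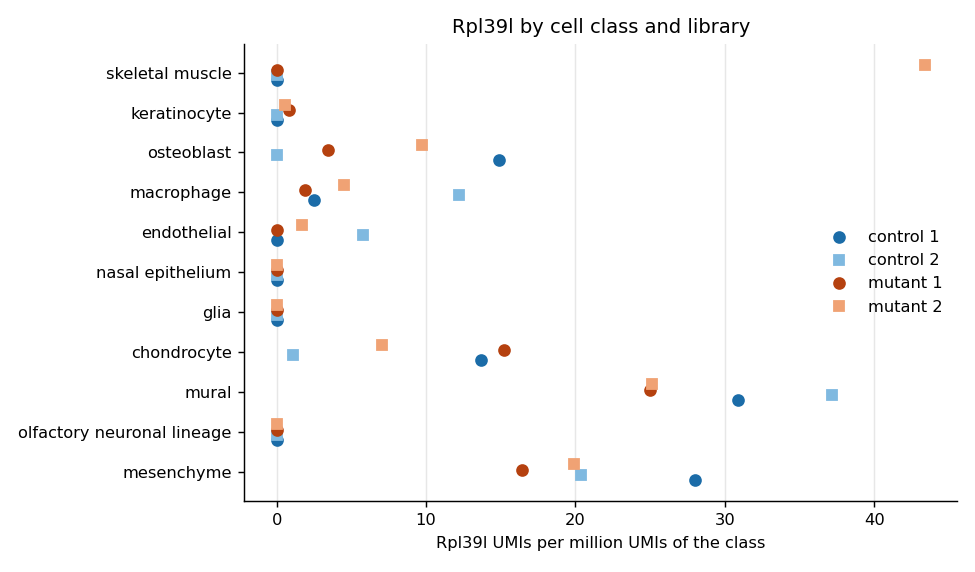
Each point is 1 library's Rpl39l level in a cell class, in CPM of that class. Mesenchyme and mural cells sit between 16.4 and 37.2, glia, nasal epithelium and the olfactory neuronal lineage at 0, and the lone high muscle point comes from 1 cell.

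For the genotype comparison, the question was whether Sox10-driven deletion of the floxed Yap and Taz alleles changed the ribosomal protein messages. No member passed in any of 10 comparisons, over all cells and in the 9 classes that reached 20 cells in each of the 4 libraries. Over all cells 0 of 80 tested members were called by edgeR, where 0.00% of 18080 genes were, and 4 members (5.00%) had an unadjusted p under 0.05, against 4.88% of genes. DESeq2, run without edgeR's count filter, called 0 members too, while 13 of 26537 genes were called higher and 17 lower. With it 11 of 80 members had an unadjusted p under 0.05, a larger share than the 659 of 26537 genes. That gene set holds many low-count genes, while 78 of the 81 members exceeded 100 CPM, so these shares are not like for like. In single classes edgeR called 0 of 78 or 79 members. Outside glia 1 to 6 members (1.28% to 7.69%) had an unadjusted p under 0.05 there, against 3.53% to 9.21% of genes. The share of all genes called there was 0.00% in chondrocytes, glia, macrophages, nasal epithelium and osteoblasts, 0.0550% in endothelium, 0.0453% in keratinocytes, 0.0190% in mesenchyme and 0.0583% in mural cells. With 2 libraries a group, this does not show that levels are alike.

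The share itself was lower on average in mutants in 12 of 12 comparisons, which use the same 4 libraries and are not independent. Over all cells it was 21.9% ± 0.513 in controls and 21.3% ± 0.590 in mutants (SD, n = 2), and the groups overlapped (two-sided exact permutation p = 0.67). Mesenchyme, macrophages, mural cells and osteoblasts overlapped as well. In the other 7 classes both mutants lay below both controls, for which the exact permutation p is 0.33, the smallest that 2 against 2 libraries allow (0.57 after adjustment over 12 comparisons). Endothelium is among them at -0.34 points, but by the median of single cells its mutants, at 22.2% and 21.5%, lay above its controls at 21.3% and 20.5%. The largest differences among these were in the neuronal lineage (-3.42 points, from 11 to 36 cells a library), skeletal muscle (-2.66) and glia (-2.60). The muscle difference rested on the 10 cells of mutant 2, and without that library it was -0.38. The neuronal lineage and skeletal muscle had too few cells for the gene-by-gene test.

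Glia, the class that expresses Sox10, had shares of 21.4% and 22.4% in controls and 20.1% and 18.4% in mutants. Of 78 tested members, 77 had a log2 fold change below 0, with a median of -0.21 against -0.01 over all genes. In 52 members (66.7%) both mutants lay below both controls, and in 0 both lay above, where 14.0% and 20.8% of all genes did so. Yet edgeR called 0 members, with 13 (16.7%) under an unadjusted p of 0.05 against 4.36% of genes. Control 2 bears on these values: 10 members with a coding length up to 300 nt were higher there by a median log2 of 0.51. Against control 1 alone, the mutants' median log2 difference was -0.15 for these 10 and -0.11 for 21 members over 600 nt. With 1 library left out, the difference in glial share ranged from -3.45 to -1.75 points. Glia held 42, 25, 32 and 20 cells. Dissociation stress genes moved alongside: they took 0.311% and 0.252% of glial UMIs in controls and 0.437% and 0.451% in mutants, the list's median log2 fold change was 0.75, and 0 of 12 were called. The Malat1 share of glial UMIs was also higher in mutants, at 0.813%, 0.982%, 1.11% and 1.48%. The part of either in the lower share was not tested. Tested assembly factors (19) and translation factors (14) had medians of -0.12 and -0.06 in glia, with 0 called.

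Both mutants lay below both controls for 26 of 79 members in mesenchyme (32.9%, all genes 14.5%), and above for 2 (all genes 25.9%). The counts below and above were 25 and 0 in chondrocytes (all genes 12.9% and 19.6%), 26 and 5 in nasal epithelium (16.1% and 19.0%), 22 and 2 in osteoblasts (13.9% and 19.9%), 20 and 4 in mural cells (16.7% and 22.1%), and 17 and 4 in macrophages (18.3% and 16.7%). Endothelium and keratinocytes had members on both sides, 24 and 19 (18.3% and 18.0%) and 25 and 18 (17.9% and 19.4%). Members' median log2 fold changes ran from -0.11 in chondrocytes and osteoblasts to 0.02 in endothelium and macrophages.

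Over all cells 25 members (31.2%) had both mutants below both controls and 4 (5.00%) above, against 13.0% and 24.9% of all genes. Members with the lowest p included Rpl39l (log2 -0.49 ± 0.14 SE), Rpl41 (-0.36 ± 0.12), Rpl38 (-0.35 ± 0.14) and Rps18 (-0.35 ± 0.14), each with an edgeR adjusted p of 0.909. Rpl39l stood at 19.16 and 17.05 CPM in controls and 11.95 and 14.62 in mutants. Rpl38 had 2760 and 3513 against 2532 and 2519, and Rps18 2388 and 3050 against 2272 and 2128. In these 3 genes the groups were separate, but Rpl38 and Rps18, like Rpl41, had their high value in control 2. Rpl3, the member nearest to the Sox10 gene (912.6 kb away on chromosome 15), had 2357 and 1915 against 2353 and 2356 CPM.

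The libraries differed by message length, a pattern looked for after the values had been seen, and control 2 ran opposite to the other 3 for this gene group. All 10 members with a coding length up to 300 nt and over 100 CPM (Rpl41, Rps29, Rps28, Rpl39, Rpl37a, Rpl37, Rps27, Rps21, Rpl38 and Rps27l) were higher in control 2 than in the mean of the other libraries, with a median log2 difference of 0.313. Only 2 of 21 members over 600 nt were, with a median of -0.172, for example Rps4x at 3128.86 CPM against 3970.60, 3898.32 and 3795.44 in control 1, mutant 1 and mutant 2. Across 78 members, which share libraries and depth, Spearman's rho of coding length with each library's difference from the mean of the other 3 was 0.26, -0.73, 0.60 and 0.76. A high value in 1 library lowers the other 3 differences by construction. Mutant 2 thus had a trend as strong as control 2 in the opposite direction, with 0 of 10 short members above 0 and a median of -0.197. Across 3525 other genes over 50 CPM rho was -0.53, 0.22, 0.0060 and 0.20, so that control 1 had the strongest trend there. Of 153 other genes up to 300 nt, 123, 81, 48 and 25 were above 0. Rps18 (456 nt) and Rpl35 (369 nt) were also high in control 2, by 0.431 and 0.396. In each of the 11 classes 9 or 10 of the 10 short members were higher in control 2, with medians from 0.27 in macrophages to 0.69 in the neuronal lineage. Malat1, a nuclear RNA, was highest there too, at 16179.5 CPM against 11570.2 to 13305.9, and the mitochondrial share was 2.93% against 2.55% to 2.65%. The part of these in the length pattern was not tested. The length pattern differed between the 2 controls, which share a genotype label (rho 0.26 and -0.73 across members). The labels name 2 providers for the library work without saying which library each handled. The part of the provider in the length pattern or in genotype differences therefore cannot be told apart.

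**Figure D5:**
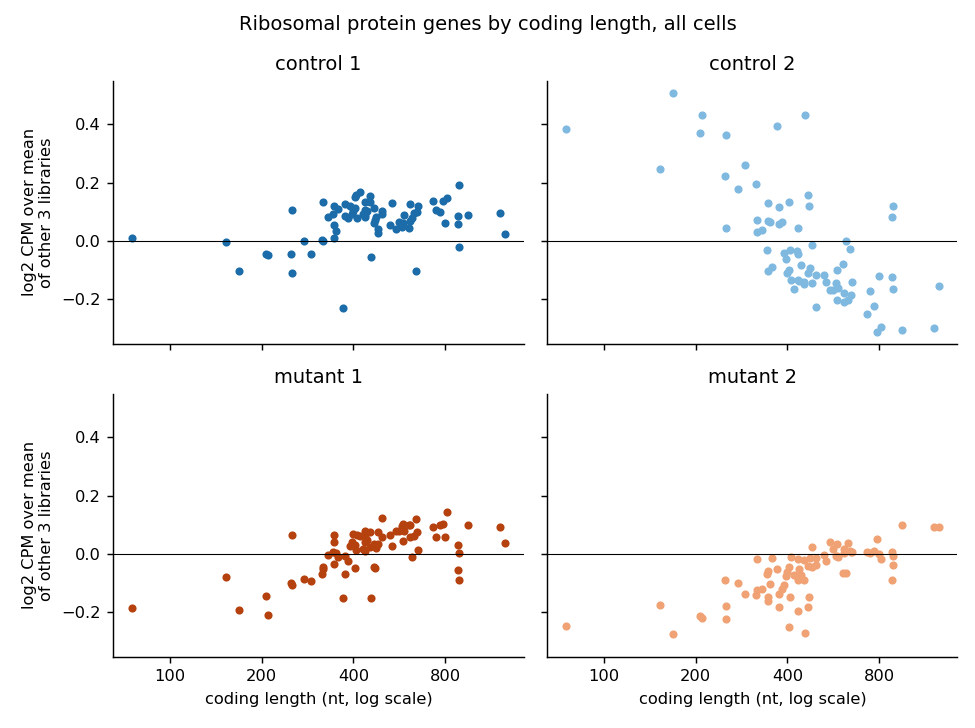
Each panel is 1 library and each point 1 of 78 ribosomal protein genes over 100 CPM, by coding length (log axis) and by log2 of its CPM over the mean of the other 3 libraries. All 10 genes up to 300 nt lie above 0 in control 2 (up to 0.508 for Rps29), 1 in mutant 1 and 0 in mutant 2.

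That library bears on the genotype result. Without control 1, so that control 2 alone stood for the controls, edgeR called 5 members lower over all cells (6.25% of members, 2.20% of all genes): Rps29 (log2 -0.59), Rpl38 (-0.53), Rps18 (-0.52), Rpl41 (-0.50) and Rps28 (-0.46). In keratinocytes it called 19 lower and 5 higher, in endothelium 8 and 8, in nasal epithelium 16 lower and in chondrocytes 8 lower (30.8%, 20.5%, 20.5% and 10.1% of members, and 5.12%, 3.58%, 5.38% and 2.17% of all genes). Mesenchyme and osteoblasts had 5 lower each (5.68% and 0.149% of all genes called), glia 2 (2.50%), macrophages 1 (2.08%) and mural cells 0. Rps29 was among the calls in 9 of the 10 comparisons. In this fit the lone control library is assumed to vary like the mutants. Without control 2, edgeR called 0 members in each comparison. The short members were still lower than control 1 in both mutants for 9 of 10 genes, but by a median of 0.10 on the log2 scale in place of the gap to control 2. So were 15 of 21 members over 600 nt, with a median log2 difference of -0.04. The share of all genes below control 1 in both mutants was not counted.

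Over all cells no other list held a gene called between genotypes: 0 of 6 ribosomal genes outside the rule, 0 of 29 assembly factors, 0 of 12 RNA polymerase I genes, 0 of 14 translation factors, 0 of 14 TOR pathway genes, 0 of 18 p53 targets, 0 of 14 cycling genes, 0 of 12 stress genes, 0 of 6 haemoglobin genes and 0 of 78 mitochondrial ribosomal proteins were called by edgeR, with 1, 1, 1 and 3 under an unadjusted p of 0.05 among the assembly factors, translation factors, p53 targets and stress genes and 0 in the other lists. In single classes the exception was the stress list in keratinocytes, where 2 of 12 were higher in mutants: the heat shock genes Hspa1a (41.67, 18.72, 205.6 and 237.6 CPM) and Hspa1b (81.02, 79.58, 229.8 and 234.2 CPM), each with an edgeR adjusted p of 0.00532.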

How the data were processed

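Single-cell libraries of embryonic noses were analysed, 2 control and 2 mutant. The deposited values are raw UMI counts from Cell Ranger, run by the authors: version 8.0.1 per the file headers, version 4 with Seurat 4.3.0 and build mm10 per the submitters' processing notes. How reads on near-identical genes were assigned is not given in the sources used here. Cells needed 500 genes or more and no more than 10% mitochondrial UMIs. Totals per library were 19767873 to 35331450 UMIs.

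Cells were put in classes by marker counts (at least 3, 2 more than the next class and, outside skeletal and mural classes, no fewer than mesenchyme markers). This version was picked from several after cell numbers per library had been seen, and it is the one that brings glia to 20 cells in each library; the minimum of 10 cells for class comparisons was also set then. Members, gene lists, the motifs, the length groups and the tests were chosen with earlier results of these data known. Summed counts were tested with edgeR 4.0.16 in R 4.3.3 (TMM, filterByExpr, quasi-likelihood, Benjamini-Hochberg), checked on simulated data. Shares were compared by exact permutation over libraries. Coding lengths are from GENCODE M21 and promoters from RefSeq. Doublets stayed in: Scrublet (scanpy 1.11.5) marked 0 to 3 cells a library at its own threshold and has not worked here, so the alternative removed the top-scoring cells at a rate of 0.8% per 1000 barcodes. Other alternatives were DESeq2 1.42.0, scaling, filters, blocks and leaving out libraries. Named genes were members past the threshold, otherwise the 5 with the lowest p over all cells, the 10 with the largest spread over classes (at least 200 UMIs), the 5 most and least abundant, and those named after another member. Replicate numbers were not shown to pair libraries. Results for some genes that these rules select are not reported here.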

Additional observations from a re-analysis of the deposited data

How the results depend on the processing

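Of 441 alternative values for 43 main results, 399 kept their direction and their side of the threshold or stayed within 1.5 times the count. In the genotype comparison the exceptions were the fit without a filter, which called 1 member each in chondrocytes and osteoblasts (Rps29), keratinocytes (Rpl41) and mesenchyme (Rpl39l), and leaving out libraries, where calls ranged from 0 to 5 over all cells, in mesenchyme and in osteoblasts, 0 to 8 in chondrocytes, 0 to 16 in endothelium and nasal epithelium, 0 to 2 in glia, 0 to 24 in keratinocytes and 0 to 1 in macrophages, every call coming without control 1. Chondrocytes, osteoblasts, keratinocytes and mesenchyme each had 80 members tested in the unfiltered genotype fit. Over all genes that fit called 48 higher and 23 lower of 19400 in chondrocytes, and 23 and 15 of 17524 in osteoblasts. In keratinocytes it called 93 and 98 of 20264 genes, and in mesenchyme 211 and 344 of 24728. A call of 1 member there does not set the group apart. Against mesenchyme, chondrocytes (30 called) gave 17 with DESeq2, 48 without a filter, 0 without the replicate block and 18 to 25 with a library left out. Glia (16) gave 6 with DESeq2, 2 without the replicate block and 5 to 28 with a library left out. Mural cells (24) gave 8 with DESeq2, 37 without a filter, 3 without the replicate block and 12 to 20 with a library left out, and skeletal muscle (61) 32 to 79 with a library left out. The cause was not tested.

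The share between genotypes turned positive in endothelium by the median of single cells (0.91 points), in macrophages with stricter cells (0.11) or 1 more marker (0.30), and ranged from -1.12 to 0.50 in macrophages, -1.06 to 0.22 in mural cells and -3.24 to 0.07 in osteoblasts with a library left out. Against mesenchyme it turned negative in endothelium by the median of single cells (-0.16) and with doublets removed (-0.36), ranging from -0.05 to 0.37 with a library left out, and positive in nasal epithelium by the median (0.48). Deviations of same-numbered libraries correlated at -0.035 to 0.111, so the numbers are not shown to pair them; with the replicate block between genotypes 0 members were called in each of 10 comparisons. For named genes 689 of 748 alternative values kept their call, 56 lost it, 3 gained it and 0 changed direction. Fits with too few cells were not run: stricter cells in glia, 1 more marker in nasal epithelium between genotypes and in skeletal muscle against mesenchyme. Small classes and 2 libraries a group limit all genotype results.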
